A study of Mus musculus with 11 samples.

Results

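The genes described here are the 5 islet hormone genes that are not insulin: Gcg, Sst, Ppy, Pyy and Ghrl. They were taken by name as the hormone genes of the alpha, delta, PP and epsilon cells, and they are 5 of the 34728 genes kept from the deposited table. RNA was measured in GFP-sorted islet cells of 8-week-old mice of mixed C57BL/6 x 129SV background, in 11 libraries. Wild-type littermates (WT, 3 libraries) were RIP-Cre; Raptor+/+; Rosa26GFP. Diabetic βRapKOGFP mice (4 libraries, labelled without insulin pellet) and euglycemic βRapKOGFP mice (4 libraries, labelled with insulin pellet, carried for 4 weeks) were both RIP-Cre; Raptor-/-; Rosa26GFP. All groups therefore carried the Cre and the GFP reporter. The rat insulin promoter drove the Cre, so GFP marked cells that had used that promoter at any time, and deletion of Raptor, the scaffold protein of mTORC1, was limited to them. Sorting of dispersed islets by GFP enriches such cells but does not give a pure population. The study describes its repetitions in general as biologically independent, but which mice went into each library is not given in the sources used here, so p-values measure the spread between these libraries.

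Islet hormones are made by separate endocrine cell types. Gcg encodes proglucagon, from which alpha cells release glucagon to raise blood glucose. Sst encodes somatostatin, with which delta cells restrain the secretion of both insulin and glucagon. Ppy encodes pancreatic polypeptide, the product of PP cells, and Pyy encodes the related peptide YY, which is made in the gut and in several islet cell types. Ghrl encodes ghrelin, the hormone of the rare epsilon cells and of the stomach. Mature beta cells make insulin, from Ins1 and Ins2 in mice, and keep the other hormone genes at low activity.

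On GRCm38, Gcg (ENSMUSG00000000394) lies on chromosome 2 (62474530 to 62483650), Sst (ENSMUSG00000004366) on chromosome 16 (23889573 to 23890958) and Ghrl (ENSMUSG00000064177) on chromosome 6 (113716119 to 113719880), all on the minus strand. Ppy (ENSMUSG00000017316, chromosome 11, 102099930 to 102101319) and Pyy (ENSMUSG00000017311, chromosome 11, 102106676 to 102107832) are neighbours on the same strand, 5356 bases apart. They are members of 1 peptide family, and they were measured as separate genes with no shared exon bases.

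The promoters are shown because 4 of the 5 genes differed in the same direction between WT and mutant libraries, and their starts can be compared letter by letter. Each sequence is the 250 bases before the RefSeq start on GRCm38.p6, 5′ to 3′ on the minus strand, at chr2:62483654-62483903 for Gcg, chr16:23890845-23891094 for Sst, chr11:102101320-102101569 for Ppy and chr11:102107833-102108082 for Pyy. The Sst start of RefSeq lies 114 bases inside the gene as GENCODE draws it, and that of Pyy is 1 of 2 in the table. Capitals mark matches to TATAAA (the TATA box), TGACGTCA (the cyclic AMP response element) or TGCTGA (a Maf half-site) on either strand.
Gcg: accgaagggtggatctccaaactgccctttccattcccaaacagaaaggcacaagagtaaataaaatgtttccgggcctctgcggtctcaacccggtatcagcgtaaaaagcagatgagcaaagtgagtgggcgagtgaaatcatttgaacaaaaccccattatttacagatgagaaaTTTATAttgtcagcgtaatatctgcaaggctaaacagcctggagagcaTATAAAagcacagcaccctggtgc
Sst: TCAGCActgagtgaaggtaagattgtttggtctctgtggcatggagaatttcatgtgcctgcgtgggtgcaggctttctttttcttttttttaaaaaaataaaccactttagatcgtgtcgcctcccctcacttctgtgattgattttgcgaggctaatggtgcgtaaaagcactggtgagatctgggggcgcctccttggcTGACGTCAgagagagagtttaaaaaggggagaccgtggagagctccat
Ppy: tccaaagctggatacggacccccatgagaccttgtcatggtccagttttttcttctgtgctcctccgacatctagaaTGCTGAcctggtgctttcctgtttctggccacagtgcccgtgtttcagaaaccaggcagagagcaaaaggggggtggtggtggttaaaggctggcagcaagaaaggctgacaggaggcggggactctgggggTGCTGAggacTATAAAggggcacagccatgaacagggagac
Pyy: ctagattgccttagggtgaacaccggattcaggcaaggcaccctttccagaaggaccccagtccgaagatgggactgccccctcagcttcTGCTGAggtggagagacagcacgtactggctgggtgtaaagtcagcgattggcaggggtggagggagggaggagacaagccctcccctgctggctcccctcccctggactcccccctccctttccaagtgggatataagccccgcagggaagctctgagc

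A TATA box stood 24 to 19 bases before the Gcg start and 31 to 26 bases before the Ppy start, and Gcg had another match on the opposite strand at 72 to 67 bases. These letters occurred in 12.4% of the 32851 promoter windows of the same length in the RefSeq table. The full cyclic AMP response element was present at 48 to 41 bases before the Sst start and in none of the other 4 windows, against 1.55% of all windows. Maf half-sites were found in Sst, Pyy and, with 2 matches, Ppy, and in 16.1% of all windows. Both Gcg and Sst held the homeodomain core TAAT, with 2 matches and 1 match, as did 54.9% of all windows. The forkhead motif TGTTTAC was in none of the 5 windows and in 3.17% of all, and an E box (CANNTG) was in all but Ppy and in 66.2% of all. No motif searched was common to all of Gcg, Sst, Ppy and Pyy, and these matches of letters are a description only.

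Depth was not given with the values. Inferred from the steps between low values, it was 9498000 to 16644000 fragments per library. Rptor, the targeted gene, had 0.948 to 1.79 FPKM in WT, 0.485 to 0.937 in the diabetic and 0.423 to 0.623 in the euglycemic group, so that every mutant library was below every WT library, the highest diabetic one (replicate 1, 0.937) only just (exact permutation test, two-sided, p = 0.0121 for 8 against 3 libraries, the smallest value possible). Before the results, 2 libraries have to be set apart. Diabetic replicate 1 had the highest summed endothelial (51.3 FPKM), leukocyte (71.9 FPKM) and stellate (21.6 FPKM) markers of all 11 libraries. The endothelial sum was higher in all diabetic libraries (8.62 to 51.3 FPKM) than in WT (1.68 to 4.06) or euglycemic libraries (1.40 to 4.43). Euglycemic replicate 4 had the highest summed acinar markers (5647 FPKM) and took 36.5% of its summed FPKM from insulin, against 17.5% to 21.5% in the other euglycemic libraries.

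Gcg was higher in both mutant groups. In WT libraries it was measured at 867, 734 and 2116 FPKM (fragments scaled to gene length and library depth, so that levels can be compared between genes). Diabetic libraries had 9077, 4571, 3432 and 14073 FPKM, and euglycemic libraries had 4093, 7786, 22921 and 10225 FPKM. No mutant library reached down to WT, although the highest WT library (replicate 3) and the lowest diabetic library (replicate 3) were only 1.62-fold apart. Mean Gcg was 1239 ± 763 FPKM in WT (SD, n = 3), 7788 ± 4847 in diabetic and 11256 ± 8175 in euglycemic libraries (SD, n = 4 each).

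Sst was also higher in both mutant groups. WT libraries had 1854, 2469 and 1149 FPKM. Diabetic libraries had 5334, 4868, 7391 and 12069 FPKM. Euglycemic libraries had 13670, 13782, 11827 and 4774 FPKM, so 3 of them lay close together and replicate 4 fell to the level of the lower diabetic libraries. The lowest mutant library was still 1.93-fold above the highest WT library.

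Ppy had the largest log2 difference from WT of the 4 genes in both mutant groups. It was at 364, 909 and 782 FPKM in WT. It was at 3007, 4709, 3606 and 11315 FPKM in diabetic and at 3616, 5241, 12190 and 4873 FPKM in euglycemic libraries. Diabetic replicate 4 and euglycemic replicate 3 stood well above the rest of their groups, as they did for Gcg, and the lowest mutant library was 3.31-fold above the highest WT library.

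Pyy, the lowest of these 4 genes in every library, had the tightest WT values. They were 149, 198 and 155 FPKM. Diabetic libraries had 668, 668, 831 and 1664 FPKM, and euglycemic libraries had 1368, 1546, 2048 and 702 FPKM. The groups were separated by 3.36-fold at their nearest points, and euglycemic replicate 4 was again the lowest of its group.

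**Figure D1:**
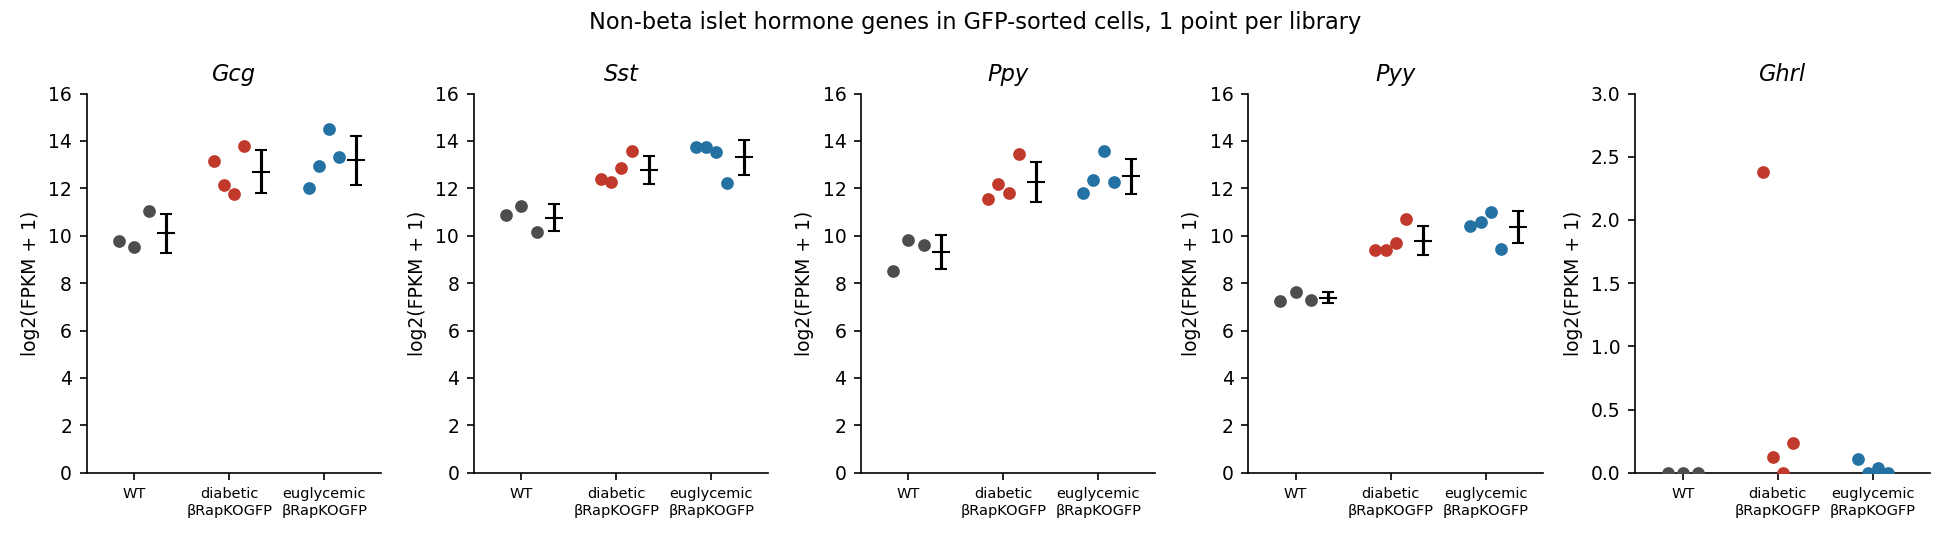
Levels of the 5 hormone genes as log2(FPKM + 1), with 1 point per library, for WT (n = 3), diabetic βRapKOGFP (n = 4) and euglycemic βRapKOGFP (n = 4). Black bars are the mean ± SD, and none is drawn for Ghrl, whose axis is narrower. For Gcg, Sst, Ppy and Pyy every mutant point lies above every WT point, and for Ghrl 1 diabetic library stands alone.

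Ghrl was all but undetected. It was listed at 0 in the 3 WT libraries. Diabetic libraries had 4.19, 0.0896, 0 and 0.176 FPKM, and euglycemic libraries had 0.0789, 0, 0.0291 and 0 FPKM. Diabetic replicate 1 was the only library above 1 FPKM, which is 10.7 to 40.2 fragments at its inferred depth, according to which Ghrl transcript was counted. Every other library held 1.95 fragments or fewer. Diabetic replicate 1 was also the library with the most endothelial, leukocyte and stellate transcripts, and their part in the Ghrl value was not tested. Ghrl did not pass the minimum level for the fit, and the exact permutation tests (two-sided) gave p = 0.229 for diabetic and p = 0.571 for euglycemic against WT, and p = 0.171 between the mutant groups. In addition, 15.94% of its exon bases overlap genes on the opposite strand (Gm26982 and Gm44033), and strand was not stated for the counting. At this depth no difference in Ghrl between the groups was detectable.

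Within the groups, the order of the hormone levels was only partly resolved. In WT the mean levels ran from Sst (1824 ± 660 FPKM, SD, n = 3) over Gcg and Ppy (685 ± 285) to Pyy (167 ± 27.1). Neighbouring Sst, Gcg and Ppy overlapped between libraries, whereas Ppy was above Pyy in all. In diabetic and euglycemic libraries Gcg, Sst (7416 ± 3290 and 11013 ± 4255) and Ppy (5659 ± 3836 and 6480 ± 3870) also overlapped, and Pyy (958 ± 477 and 1416 ± 556, n = 4 each) stayed below every Ppy value. Sst led in 6 of the 11 libraries and Gcg in the other 5.

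The first comparison asks what differed in Raptor-deficient cells when the mice were diabetic. Ppy and Pyy rose in diabetic βRapKOGFP, with log2 fold changes of 2.94 (SE 0.50, adjusted p = 0.0177) and 2.41 (SE 0.38, adjusted p = 0.0103) in limma. The values for Gcg (2.598, SE 0.60, adjusted p = 0.0658) and Sst (1.995, SE 0.43, adjusted p = 0.0504) missed the limma threshold. A gene was called where the Benjamini-Hochberg adjusted p was at most 0.05 and the change at least 1.5-fold, so 2 of the 4 hormone genes tested were called, both higher. Of all 11251 genes tested, 0.969% were called in either direction and 0.471% were called higher. That is 53 higher of 109 called, against 62 of 97 when values were rescaled to TPM and 98 of 150 when insulin, amylin and these hormones were left out of the rescaling. The count over all genes was 34, 23 and 26 without WT replicate 1, 2 or 3, 44, 67 and 38 without diabetic replicate 1, 2 or 3, and 209 without euglycemic replicate 4. All of the 4 tested hormone genes were above WT in every diabetic library, which was true of 6.67% of all genes. The count rested on the WT libraries: it was 0 without WT replicate 1 or 3, and 1 (Pyy) without WT replicate 2. Sst was called without euglycemic replicate 4 (adjusted p = 0.0119 in limma) and Gcg without euglycemic replicate 3 (adjusted p = 0.0497), and with diabetic replicate 1 and euglycemic replicate 4 both left out the count was 3.

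The second comparison asks what differed in Raptor-deficient cells when blood glucose was held down by insulin. In euglycemic βRapKOGFP all 4 hormone genes that could be tested rose against WT. The log2 fold changes were 3.07 for Gcg (SE 0.60, limma adjusted p = 0.0389), 2.55 for Sst (SE 0.43, adjusted p = 0.0199), 3.18 for Ppy (SE 0.50, adjusted p = 0.0149) and 2.98 for Pyy (SE 0.38, adjusted p = 0.00347). Across all genes 0.551% were called and 0.356% were called higher, and 5.91% had every euglycemic library above every WT library, as these 4 did. The 62 genes called became 532 without WT replicate 1, 15 without WT replicate 2 and 10 without WT replicate 3, and 35, 19 and 40 without euglycemic replicate 1, 2 or 3. Pyy was called in each fit that left out 1 library. The count fell to 1 without WT replicate 3 and to 2 without WT replicate 2, euglycemic replicate 2 or euglycemic replicate 3, and in each of these Gcg and Sst were among the calls lost. With diabetic replicate 1 and euglycemic replicate 4 both left out it was 3, as Gcg missed the threshold (adjusted p = 0.0754 in limma).

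The WT libraries are shared by both comparisons, which are therefore not independent. For the mean of both mutant groups against WT, the 4 genes rose by 2.84 (Gcg, SE 0.53, limma adjusted p = 0.024), 2.27 (Sst, SE 0.39, adjusted p = 0.0138), 3.06 (Ppy, SE 0.45, adjusted p = 0.00635) and 2.70 (Pyy, SE 0.33, adjusted p = 0.00249) on the log2 scale. In this comparison 1.05% of all genes were called, 0.533% higher (60 of 118, against 60 of 97 with TPM), and 1.9% had all 8 mutant libraries above all WT libraries. The count over all genes was 29 and 28 without WT replicate 2 or 3, 77 and 75 without diabetic replicate 1 or 3, and 76 and 179 without euglycemic replicate 2 or 4. Leaving out mutant libraries 1 at a time kept the count at 4, and leaving out any 1 WT library gave 3. The lost call was Gcg without WT replicate 1 or 2 (limma adjusted p = 0.0768 and 0.161) and Sst without WT replicate 3. In a bulk sample a larger number of cells that express a hormone and more of its RNA per cell cannot be told apart.

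The third comparison asks whether holding down blood glucose made a difference within the mutants. None of the 4 hormone genes was called between diabetic and euglycemic βRapKOGFP in limma, and 0 reached 0.05 before adjustment. Of all genes 0.00889% were called, and 20.6% reached 0.05 before adjustment. Leaving out WT replicate 1 raised the 1 gene called to 380, leaving out euglycemic replicate 4 raised it to 4, and in the other fits that left out 1 library the count was 0 or 1. Each hormone gene was lower in diabetic libraries, with log2 differences of -0.47 for Gcg (95% confidence interval -1.67 to 0.72, limma adjusted p = 0.649), -0.55 for Sst (-1.42 to 0.32, adjusted p = 0.446), -0.24 for Ppy (-1.25 to 0.77, adjusted p = 0.797) and -0.57 for Pyy (-1.33 to 0.18, adjusted p = 0.36). These intervals leave room for more than a 2-fold difference downwards, so the groups are not shown to be alike. For Ppy the direction turned without euglycemic replicate 3 (0.12).

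**Figure D2:**
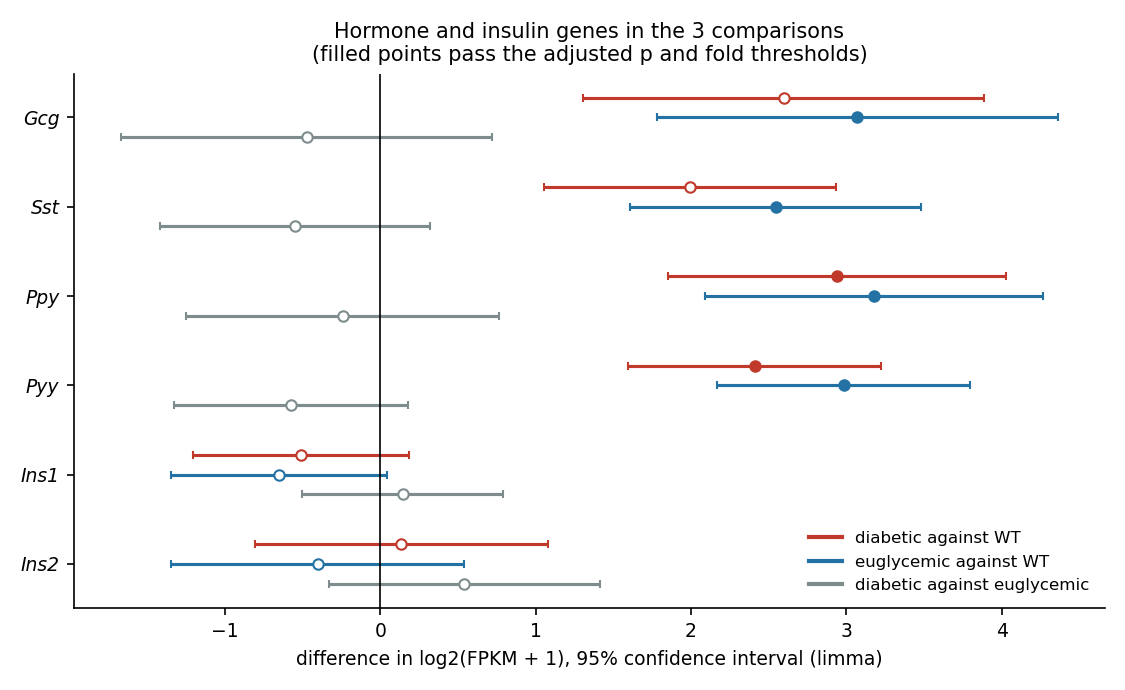
Differences in log2(FPKM + 1) for 4 hormone genes and both insulin genes, with 95% confidence intervals from limma, for diabetic against WT, euglycemic against WT and diabetic against euglycemic βRapKOGFP. Filled points pass both thresholds. The hormone genes lie between 1.995 and 3.18 in the comparisons with WT, while every interval between the mutant groups and every interval of Ins1 and Ins2 includes 0.

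The insulin genes were called in no comparison. Ins1 was at 71701, 97248 and 101797 FPKM in WT, at 53562, 85195, 55011 and 61613 in the diabetic and at 47726, 52788, 53830 and 76615 in the euglycemic group. Its log2 differences from WT of -0.51 (SE 0.32, limma adjusted p = 0.585) and -0.65 (SE 0.32, adjusted p = 0.393) were not called, and the groups overlapped. Ins2 (37819 to 63931 FPKM in WT, 40001 to 80670 in diabetic, 22121 to 78674 in euglycemic libraries) was not called either, at 0.14 (adjusted p = 0.937) and -0.40 (adjusted p = 0.702).

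A ratio to insulin within a library does not depend on how the library was scaled. Per 1000 FPKM of Ins1 and Ins2 together, Gcg was 7.92, 4.55 and 14.2 in WT, 84.5, 27.6, 36.1 and 129 in the diabetic and 58.6, 97.2, 248 and 65.8 in the euglycemic group. Sst was 16.9, 15.3 and 7.69 in WT, 49.7, 29.4, 77.8 and 111 in the diabetic and 196, 172, 128 and 30.7 in the euglycemic group. Both ratios kept WT apart from all mutant libraries.

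Ppy was 3.32, 5.64 and 5.23 per 1000 in WT, 27.99, 28.4, 38.0 and 104 in the diabetic and 51.8, 65.4, 132 and 31.4 in the euglycemic group. Pyy was 1.36, 1.23 and 1.04 in WT, 6.22, 4.03, 8.75 and 15.3 in the diabetic and 19.6, 19.3, 22.2 and 4.52 in the euglycemic group. Against the combined mutants, the mean log2 ratio differed from WT by 3.23 for Gcg, 2.67 for Sst, 3.46 for Ppy and 3.10 for Pyy, higher in 8 of 8 mutant libraries each time (exact permutation test, two-sided, p = 0.0121, adjusted p = 0.0606 over 20 comparisons, 4 of them of Ghrl). Adjusted over the 16 without Ghrl, a choice made after seeing the data, the adjusted p was 0.0485. The unadjusted p is the smallest that 8 against 3 libraries allow, and 4 against 3 cannot go below 0.0571. Diabetic and euglycemic libraries overlapped for each ratio, with log2 differences of -0.77 for Gcg, -0.85 for Sst, -0.54 for Ppy and -0.87 for Pyy and exact p of 0.257 to 0.4. For Sst and Pyy the overlap rested on euglycemic replicate 4. Without it every diabetic library was below every euglycemic one, with log2 differences of -1.45 and -1.42 (exact permutation test, two-sided, p = 0.0571, the smallest possible for 4 against 3, adjusted p = 0.0952). No ratio is given for Ghrl, as it would reflect the pseudocount.

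**Figure D3:**
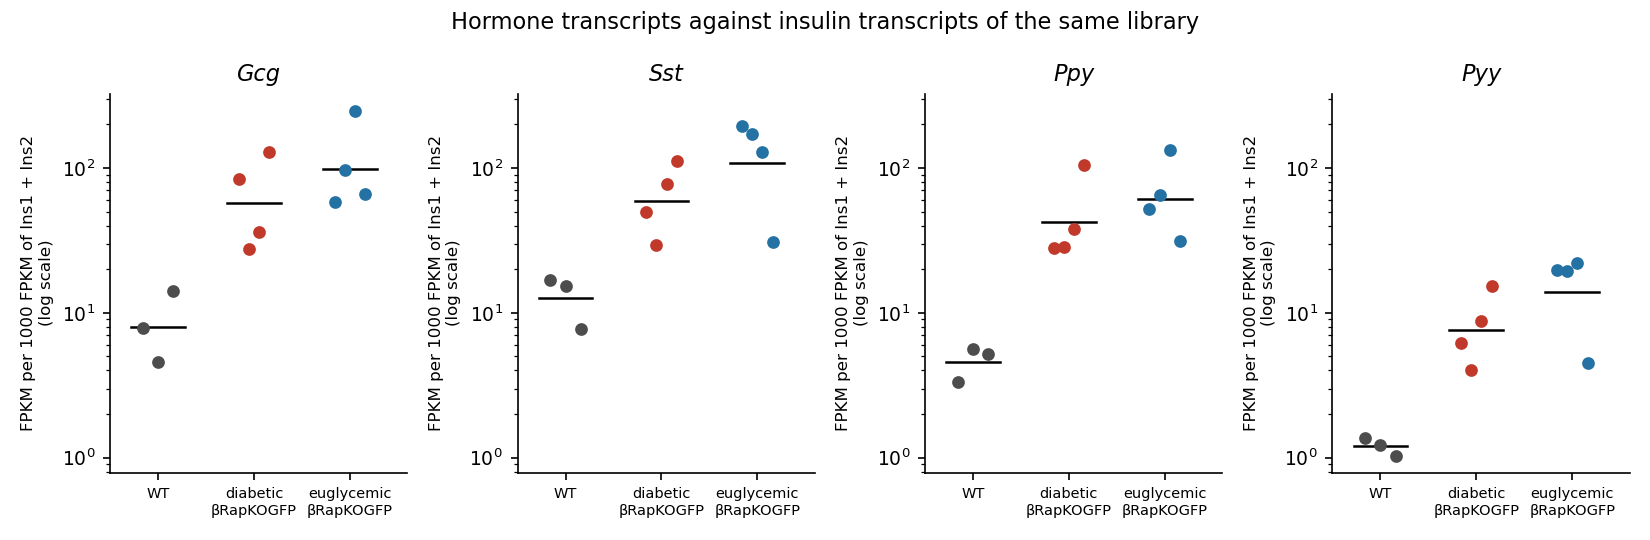
FPKM of each hormone gene per 1000 FPKM of Ins1 + Ins2 in the same library, on a log axis, with 1 point per library and a line at the geometric mean of WT (n = 3), diabetic (n = 4) and euglycemic (n = 4) libraries. All mutant points lie above all WT points, and euglycemic replicate 4 is the lowest of its group for Sst, Ppy and Pyy.

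Summed over the 5 genes, hormones other than insulin made up 2.87%, 2.605% and 2.73% of the islet hormone FPKM in WT. The shares were 14.4%, 8.20%, 13.8% and 26.4% in diabetic and 24.6%, 26.1%, 34.6% and 11.7% in euglycemic libraries. The WT shares were thus nearly equal, while the mutant libraries were spread over a wide range and overlapped between the groups. Of all summed FPKM, these genes took 0.763% to 1.08% in WT, 3.69% to 9.83% in diabetic and 4.84% to 11.4% in euglycemic libraries.

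**Figure D4:**
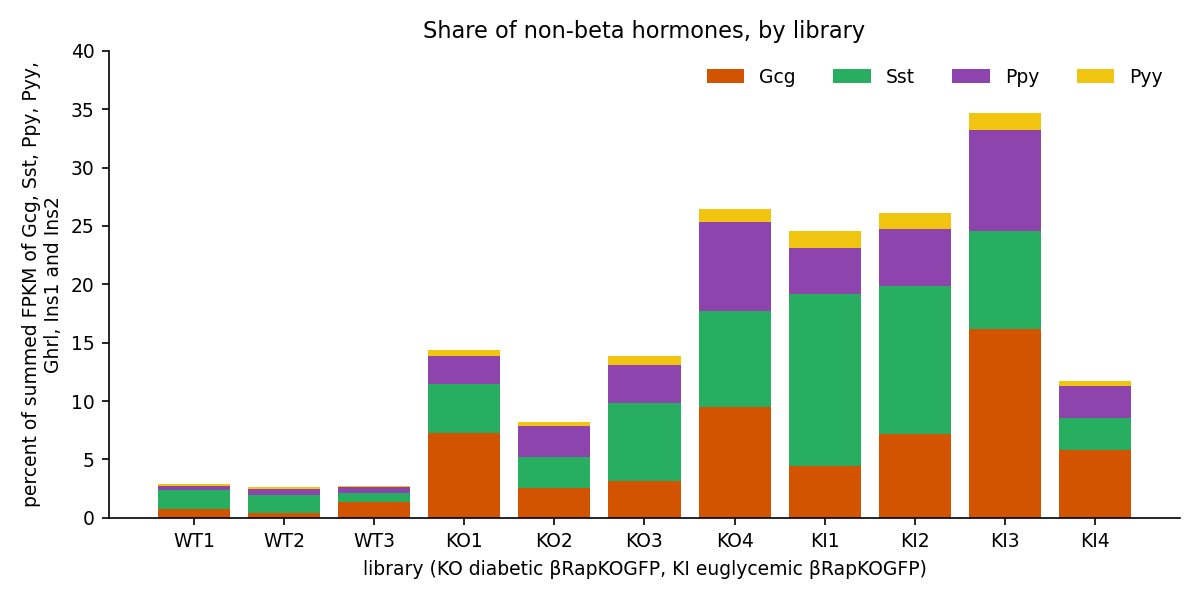
Share of the summed FPKM of Gcg, Sst, Ppy, Pyy, Ghrl, Ins1 and Ins2 that came from each hormone other than insulin, in percent, for the 11 libraries; Ghrl is too small to draw. WT bars reach 2.605% to 2.87%, and mutant bars reach 8.20% to 34.6% with differing proportions of Gcg and Sst.

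No ratio between the hormones passed its test. Gcg over Sst ran from 0.297 to 1.84 in WT, with 0.464 to 1.70 for the diabetic and 0.299 to 2.14 for the euglycemic group. Sst over Pyy was the narrowest ratio, at 7.42 to 12.5, 7.25 to 8.89 and 5.77 to 9.99. Ppy over Pyy ran from 2.44 to 5.05, 4.34 to 7.05 and 2.64 to 6.94. Over the 6 pairs of Gcg, Sst, Ppy and Pyy and 4 comparisons, a choice made after seeing the data, the smallest p was 0.0606 for Sst over Pyy with all mutants against WT (exact permutation test, two-sided), and the adjusted p over 24 comparisons was 0.873.

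Within the 8 mutant libraries 15 relations among the hormones and insulin were computed, and none passed after adjustment. Values of a library share its scaling, so that a large change in insulin moves every other level. The largest r was that of Sst with Pyy, at 0.93 on log2(FPKM + 1) (exact permutation p = 0.00779, adjusted p = 0.077 over 15 relations) and a Spearman rho of 0.71 (exact p = 0.0576, adjusted p = 0.216). Without the 2 libraries farthest from the median Sst, r was 0.89. With values centred on the mean of each mutant group it was 0.91, which passed the threshold (exact permutation test, adjusted p = 0.0246), and 0.81 without the 2 farthest.

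Gcg and Ppy had an r of 0.78 (exact permutation p = 0.0267, adjusted p = 0.133, rho = 0.71 with exact p = 0.0576, adjusted p = 0.216), which fell to 0.59 without the 2 farthest libraries and was 0.92 without diabetic replicate 1 (adjusted p = 0.0298, exact permutation test). Ppy with Pyy reached 0.73 (exact p = 0.0398, adjusted p = 0.149, rho = 0.74 with exact p = 0.0458, adjusted p = 0.216), but r was 0.24 without the 2 farthest libraries, so that the relation rested on those. Gcg and Sst had an r of 0.20 (exact permutation p = 0.627, adjusted p = 0.902, rho = -0.07 with exact p = 0.882, adjusted p = 0.951). Against the sum of Ins1 and Ins2, the sign was negative for Sst (r = -0.84, exact permutation p = 0.0103, adjusted p = 0.077, rho = -0.81 with exact p = 0.0218, adjusted p = 0.216). That relation was -0.62 without the 2 farthest libraries and, with centred values, -0.81 over all 8 and -0.12 without the 2 farthest. Centred values gave 0.77 for Gcg with Ppy and 0.06 without the 2 farthest, so both relations rested on those libraries. Gcg had an r of 0.07 with insulin (exact permutation p = 0.854, adjusted p = 0.915, rho = 0.21 with exact p = 0.619, adjusted p = 0.815).

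**Figure D5:**
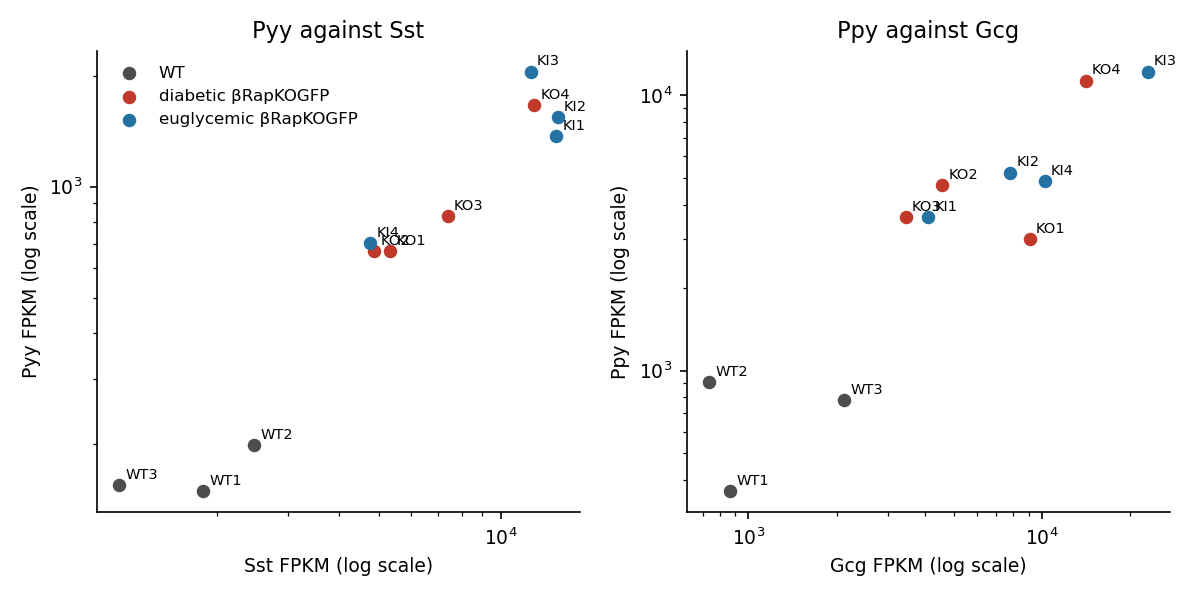
FPKM of Pyy against Sst and of Ppy against Gcg, on log axes, with each of the 11 libraries named (KO diabetic, KI euglycemic βRapKOGFP). WT libraries form a cluster at the lower left of each panel, and among the 8 mutant libraries r is 0.93 for Pyy and Sst and 0.78 for Ppy and Gcg, with no adjusted p of at most 0.05.

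Hhex, a transcription factor required in delta cells, was at 1.60, 2.72 and 1.13 FPKM in WT, 8.90, 2.04, 8.56 and 7.95 in the diabetic and 12.7, 9.14, 5.18 and 0.945 in the euglycemic group. Euglycemic replicate 4, which also had the lowest Sst of the mutant libraries, was below all WT libraries. Over the 8 mutant libraries Sst and Hhex had an r of 0.69 (exact permutation p = 0.0667, adjusted p = 0.178 over 8 relations chosen after seeing the data, rho = 0.76 with exact p = 0.0368, adjusted p = 0.147), but only 0.05 was left without the 2 libraries farthest in Sst.

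Of the 14 alpha-cell markers 8 could be tested. Gc, the vitamin D binding protein, rose in diabetic (log2 fold change 2.24, limma adjusted p = 0.00154) and euglycemic libraries (2.13, adjusted p = 0.00137), and Slc38a5, an amino acid transporter, rose in euglycemic libraries (1.23, adjusted p = 0.0389). These were the only alpha-cell markers called. At an unadjusted p of at most 0.05, which 11.9% of all genes reached in diabetic and 13.9% in euglycemic against WT, 4 were higher in each comparison and 1 was lower in euglycemic libraries. The lower one was the amino acid transporter gene Slc7a2 (-0.78, limma adjusted p = 0.171), below WT in every euglycemic library and named after its values were seen. The median log2 fold changes over the list were 0.84 and 0.71, against 0.01 and -0.01 over all genes tested. Summed alpha-cell markers ran from 361 to 580 FPKM in WT, 738 to 913 in the diabetic and 623 to 1317 in the euglycemic group.

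Of the 5 delta-cell markers 2 were tested (median log2 fold changes 1.44 and 1.67). Rbp4, the retinol carrier, rose in euglycemic libraries (2.12, limma adjusted p = 0.0248), and the summed list ran from 26.6 to 48.4, 74.0 to 193 and 89.7 to 252 FPKM. Of the 3 PP-cell markers 2 were tested, and limma called 0 (median log2 fold changes -0.44 and -0.17, with 1 lower in diabetic libraries at an unadjusted p of at most 0.05). Id4 was at -0.81 and -0.10 and Meis2 at -0.08 and -0.24 on the log2 scale. The third, Aqp3, was too low to test, at 0 in the 3 WT libraries, diabetic replicate 4 and euglycemic replicates 3 and 4 and at 0.191 to 0.817 FPKM in the other 5. The summed list was 7.95 to 10.6 FPKM in WT, 4.38 to 9.21 in the diabetic and 6.25 to 10.6 in the euglycemic group. Of 5 epsilon-cell markers 3 were tested and limma called 0 (median 0.33 and -0.21, with 1 higher in diabetic libraries at an unadjusted p of at most 0.05), with sums of 136 to 147, 106 to 172 and 87.3 to 190 FPKM, and Asgr1 was at 0 in all 11 libraries. The part of other cell types in the hormone levels was not tested.

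Among the 10 beta-cell markers, all tested, Slc2a2, the glucose transporter GLUT2, and Slc30a8, the granule zinc transporter, fell in diabetic (-2.06 and -1.78, limma adjusted p = 0.00254 and 0.0027) and euglycemic libraries (-1.79 and -1.31, adjusted p = 0.00712 and 0.0195). No other beta-cell marker was called. The list medians were -0.51 and -0.54 on the log2 scale, and 3 markers in diabetic and 1 in euglycemic libraries were above 0. At an unadjusted p of at most 0.05, 4 were lower in each group and 0 were higher. The summed list overlapped, at 157613 to 191511 FPKM in WT, 138230 to 206534 in the diabetic and 117287 to 202220 in the euglycemic group. Of the 12 acinar markers limma called 0, and 9 in diabetic and 1 in euglycemic libraries were higher at an unadjusted p of at most 0.05, against 11.9% and 13.9% of all genes in either direction. Their median log2 fold changes were 4.56 and 3.10, and their sum was 4.00 to 49.6 FPKM in WT, 16.8 to 2875 in the diabetic and 16.2 to 5647 in the euglycemic group. Summed duct markers were 591 to 1784 FPKM in WT, 812 to 1270 in the diabetic and 680 to 1815 in the euglycemic group. Euglycemic replicate 3 and diabetic replicate 4, with the highest share of non-beta hormones in their groups, had acinar sums of 16.3 and 16.8 FPKM and the highest duct sums of their groups. Of 7 duct markers tested Krt19 rose in euglycemic libraries (2.29, adjusted p = 0.0149 in limma). The duct list had median log2 fold changes of 0.28 and 0.81. At an unadjusted p of at most 0.05, 2 duct markers were higher in diabetic and 4 in euglycemic libraries. Of 2 endothelial markers Plvap rose in diabetic libraries (3.29, limma adjusted p = 0.0177). Of 3 leukocyte markers the B-cell gene Cd79a fell in both groups (-3.12 and -3.16, limma adjusted p = 0.000736 and 0.000626). The other 2 leukocyte markers tested had log2 fold changes above 0 in both groups. In diabetic libraries 1 of them reached an unadjusted p of at most 0.05. No stellate marker was high enough to test, with sums of 0 to 0.641 FPKM in WT, 0.970 to 21.6 in the diabetic and 0 to 0.963 in the euglycemic group.

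Of 18 receptor genes listed for islet hormones and related peptides 7 were tested. Only Gipr, the receptor of the gut incretin GIP and not of the hormones described here, was called. It fell by 1.64 in diabetic (SE 0.32, limma adjusted p = 0.0327) and by 1.76 in euglycemic libraries on the log2 scale (SE 0.32, adjusted p = 0.0283), with 15.1, 30.2 and 26.997 FPKM for WT, 4.58 to 10.1 for the diabetic and 3.57 to 9.74 for the euglycemic group. Of 13 genes that process prohormones or build the granule, 12 were tested, and Vgf, a granule peptide precursor, was called, with a rise in diabetic libraries of 1.27 (SE 0.27, adjusted p = 0.045 in limma). At an unadjusted p of at most 0.05, 3 of these genes were higher and 1 lower in diabetic libraries. In euglycemic libraries 2 were higher and 1 was lower. Of the receptors 1 was higher and 1 lower in diabetic, and 2 were higher and 2 lower in euglycemic libraries. Of all genes tested, 0.969% were called in diabetic and 0.551% in euglycemic against WT. Among 30 other peptide hormones and neuropeptides 11 were tested and none was called in limma (1 higher and 1 lower in diabetic, 1 higher in euglycemic libraries at an unadjusted p of at most 0.05). Of 24 regulators of islet hormone genes 18 were tested and again none was called in limma (3 higher and 3 lower, and 1 higher and 2 lower, at an unadjusted p of at most 0.05, which 11.9% and 13.9% of all genes reached).

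No neighbour outside the hormone genes was called. Besides Ppy and Pyy themselves, the nearest neighbours tested were Dpp4 beside Gcg, Rtp4 beside Sst, Mpp2 beside Ppy and Sec13 beside Ghrl, and limma called none in any comparison. Mpp2, 11414 bases from Ppy, had a log2 difference of 0.66 in diabetic libraries (adjusted p = 0.298), and Dpp4, whose enzyme trims several of these peptides, was at -0.53 and -0.78 (adjusted p = 0.563 and 0.304 in limma). The neighbours Fap, Rtp2, Nags and Tatdn2 were too low to test.

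The genes whose levels followed a hormone most closely were ranked by Pearson r of log2(FPKM + 1) over all 11 libraries, where the difference between WT and mutants enters each r. Rerg, a Ras-related growth inhibitor, was nearest to Pyy (r = 0.99) and Ppy (0.94) and ranked behind Rbp4 (0.98) for Sst (0.95). It was at 0.0868 FPKM on average in WT, 1.18 in the diabetic and 1.4998 in the euglycemic group. For Gcg the list was led by Higd1a (0.93), Rcn3 (0.92), Cldn6 (0.91) and Serpine2 (0.91).

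Also near Ppy were Serpine2 (0.93), Basp1 (0.92) and Cmtm8 (0.90). Near Sst they were Cadm1 (0.95), Tmem37 (0.93) and Cd9 (0.93), and near Pyy they were Cadm1 (0.96), Rbp4 (0.95), Spp1 (0.93) and Cd24a (0.93). Within the 8 mutant libraries alone the lists were different. Higd1a still led for Gcg (0.93), but the genes nearest to Sst (Hpf1, 0.99), Ppy (Gpn3, 0.94) and Pyy (Fis1, 0.99) did not appear among those nearest over all 11. In both rankings each r was picked as one of the highest over all genes tested, from few libraries. These r are therefore high by selection, and none was tested. Mean Hpf1 was 14.5 FPKM in WT, 11.1 in the diabetic and 14.7 in the euglycemic group, and mean Fis1 was 30.2, 25.1 and 30.6 FPKM.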

How the data were processed

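The authors sequenced RNA of GFP-sorted islet cells as paired-end libraries, aligned to mm10, and deposited 1 table of FPKM values, with a column for each of 11 libraries. The study's methods name Tophat and Cufflinks, whereas the submitters' processing notes name HISAT2 2.0.4, StringTie 1.3.0 and edgeR, so the tool behind the values is uncertain, and strand handling is not given in the sources used here. Columns named KI were taken as the libraries titled KO insulin treatment. Of 34745 entries, 34267 were matched to a symbol and 17 repeats were left out, keeping 34728. Depth was inferred in 4490 single-exon genes, where 92.7% to 97.3% of low values were whole fragments (tolerance 0.02).

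Fits used limma 3.58.1 in R 4.3.3 (eBayes with a trend) on log2(FPKM + 1), all 11 libraries, and kept the 11251 genes that reached 1 FPKM in 3 libraries or more. This scale understates changes of low genes. Calls needed 0.05 or less after Benjamini-Hochberg adjustment and a 1.5-fold change. Exact permutation tests (two-sided) used scipy 1.17.1 in Python 3.11.15, and ratios to insulin a pseudocount of 0.01. The members, lists and tests were chosen with earlier results of these data known. Named genes were the members, Ins1, Ins2, Rptor, at most 3 called genes per list and comparison, the 5 genes most alike each member, and nearest neighbours. Hhex, Aqp3, Id4, Meis2, Slc7a2 and Asgr1 were named after their values were seen, and some genes that the rule names are not reported here. Coordinates are from GENCODE vM21, and promoters from RefSeq GRCm38.p6, which held all 5 members. Alternatives were the filter, pseudocount, scaling, samples in the fit, trend, weights, replicate block, and each library left out.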

Additional observations from a re-analysis of the deposited data

Results flagged for a closer look

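In 24 sets of 4 libraries (the hormone and insulin levels and the ratios to insulin, in the diabetic and the euglycemic group), the distance of the highest or lowest library from its nearest neighbour was compared with the range of its group. Chance singles out about 1 in 20 such groups, and 3 were singled out here as past the 95% critical value of Dixon's test.

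Sst in euglycemic replicate 4 lay apart, with a gap of 0.856 of the range of its group on the log2(FPKM + 1) scale (4774 FPKM against 11827 to 13782). The ratio of Pyy to insulin was also lowest in that library, with a gap of 0.913 of the range (4.52 per 1000 insulin FPKM against 19.3 to 22.2). The same library had the highest acinar marker sum (5647 FPKM) and the highest insulin share of its group (36.5%), and their part in these values was not tested.

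Ghrl in diabetic replicate 1 lay above the other diabetic libraries by 0.901 of the range (4.19 FPKM against 0 to 0.176). This library had the highest endothelial, leukocyte and stellate marker sums, and their part in the Ghrl value was not tested.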

How the results depend on the processing

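Among 4 hormone genes and 4 comparisons, no alternative turned the direction of a log2 fold change except for Ppy between the mutant groups, which ranged from -0.64 to 0.12 when 1 library was left out. Between the mutant groups 0 were called under every alternative run. Against WT the counts were less stable. With no filter on low values 0 (diabetic), 1 (euglycemic) and 1 (combined) hormone genes were called. That fit adjusted over 27403 genes, and its standard errors were also larger (0.72 instead of 0.60 for Gcg in diabetic mice). With only the groups compared in the fit the counts were 4 and 2, and with library weights 4 in diabetic mice; the cause was not tested. Sst in diabetic mice was also called with TPM, with median-of-ratios scaling and with no trend (adjusted p 0.0474, 0.0423 and 0.0415), and Gcg in euglycemic mice was not called with a pseudocount of 0.1 or 0.01 (adjusted p 0.054 and 0.0658). Leaving out 1 library gave 0 to 3 in diabetic and 1 to 4 in euglycemic mice.

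Scaling that left out insulin, amylin and the 5 hormones moved the median of all genes to 0.11 (log2) in diabetic against WT and to 0.17 between the mutant groups (0.12 with TPM), and the 4 hormone genes were higher than WT under each scaling. With it Sst was called in diabetic (adjusted p 0.019) and Gcg was not called in euglycemic mice (adjusted p 0.0542). With the replicate number as a block (replicate block) the counts were 1, 2 and 2. Same-numbered libraries did not deviate together (mean r -0.13 over 10 pairs, against 0.04 over 30 others), so the numbers were not taken to pair the libraries. Counts over all genes fell from 109 to 45, from 62 to 20 and from 118 to 53 with the block. With no filter they were 22, 13 and 23, with library weights 551, 2287 and 1116 (1212 instead of 1 between the mutant groups), and with a pseudocount of 0.01 the first and last were 52 and 76. With only the groups compared the second was 17 and that between the mutant groups 6.

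All alternatives for the ratios to insulin kept their direction. Adjusted without the Ghrl ratios, the combined mutants against WT passed (3.23 for Gcg, 2.67 for Sst, 3.46 for Ppy and 3.10 for Pyy, adjusted p 0.0485 by exact permutation test), a choice made after seeing the data. Of the correlations, Sst with Pyy passed with centred values (0.91), Sst with insulin without diabetic replicate 4 (-0.90, adjusted p 0.0238, exact permutation test) and Gcg with Ppy without diabetic replicate 1 (0.92). Leaving out 1 library gave 0.62 to 0.92 for Gcg with Ppy, -0.90 to -0.78 for Sst with insulin, -0.20 to 0.37 for Gcg with insulin and -0.19 to 0.17 for Ppy with insulin. Depth limits Ghrl, where 1 fragment per kilobase is 0.0601 to 0.105 FPKM.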
